A study of Mus musculus with 6 samples.

Results

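The enzymes described here are 9 genes of hepatocytes, the main cells of the liver, measured in RNA of red blood cells: Cyp2e1, Cyp2c29, Cyp3a11 and Cyp2f2 (cytochromes P450), Ces3a (a carboxylesterase), Car3 (a carbonic anhydrase), Cps1 and Ass1 (urea cycle) and Fbp1 (gluconeogenesis). They are 9 of the 27179 genes counted, found by symbol. They were selected on the mutant and wild-type counts of these libraries, as liver transcripts read in the mutants, so their difference between the genotypes is described with no test. The mice were BalB/c males, 3 carrying 1 copy of the Nxf1 missense allele C587R (Nxf1+/C587R) and 3 wild-type littermates (Nxf1+/+). Nxf1 is the main receptor that carries messenger RNA out of the nucleus. The labels give no age, no treatment and no transgene, and each library came from 1 animal. Each of 3 batches held 1 mutant and 1 wild-type library, numbered here by batch. Red cells of blood from cardiac puncture were pelleted through Ficoll and washed, and the libraries were made from polyadenylated RNA.

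Liver lobules are organised along the flow of blood, which enters at the portal triad and leaves at the central vein. Hepatocytes near the central vein (pericentral) receive Wnt signals and carry most of the cytochrome P450 detoxification, whereas those near the portal triad (periportal) carry more urea synthesis and gluconeogenesis. In liver the genes of the set are textbook markers of position: Cyp2e1, Cyp2c29, Cyp3a11 and Car3 are known as pericentral, and Cyp2f2, Cps1, Ass1 and Fbp1 as periportal. Ces3a was put in no zone.

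The libraries held 14636739 to 15790336 counts each, of which globin genes took 88.1% to 89.3%, leaving 1627997 to 1877571 counts for all other genes. The erythroid markers Hba-a1, Hba-a2, Hbb-bs, Alas2 and Slc4a1 were abundant in all 6 libraries. Nxf1 itself had 9, 7 and 11 counts in mutant libraries and 15, 10 and 20 in wild-type ones (log2 −0.21, edgeR adjusted p = 0.853), and counts per gene do not show the missense allele. A count of 0 in 1 library allows up to 3 counts, or 0.190 to 0.205 CPM (counts at one common library total). Wild-type library 1 stood apart, with 415 counts of 16 exocrine pancreas markers against 1 to 2 in each other library. It held 0 counts of all 9 enzymes.

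Over the 9 enzymes the mutant libraries held 226, 683 and 294 counts, or 14.9, 44.8 and 20.1 CPM, and the wild-type libraries 0, 0 and 2. The enzymes were thus read almost only in mutant libraries, where library 2 was the highest and library 1 the lowest. Wild type had 0 counts of 7 of the 9 enzymes, and 1 count each of Cyp2e1 and Car3, both in library 3. For 8 of the 9, all but Ass1, each mutant count was above each wild-type count. Of the 16396 genes with at least 1 count, 2.87% had this pattern. By edgeR 5.99% of the 2823 genes tested were higher in the mutants and 1.06% lower (adjusted p under 0.05). Among the enzymes 7 passed the filter on low counts and 6 of them, all but Cyp2c29, were among the higher genes. The contrast chose the set, so nothing is read from these shares. In bulk RNA, fewer cells of a type and less RNA per cell cannot be told apart.

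**Figure D1:**
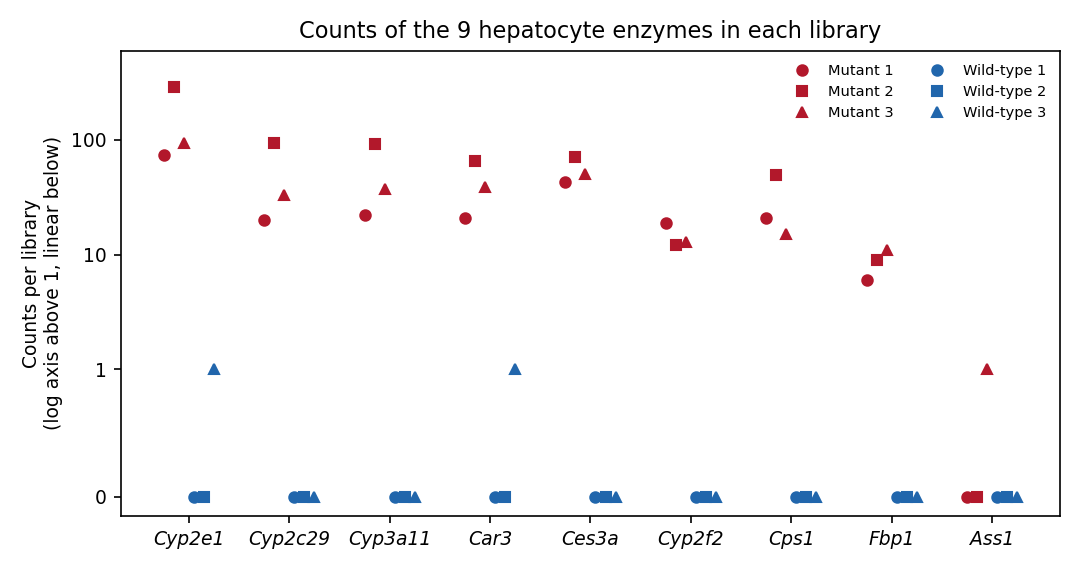
Counts of the 9 enzymes in each of the 6 libraries (y axis, log scale above 1 and linear below), with mutant libraries in red, wild-type libraries in blue and 1 marker shape per batch. Wild-type libraries sit at 0 except for 1 count of Cyp2e1 and 1 of Car3, and mutant library 2 is highest for 6 of the 9 enzymes.

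Upstream sequences are shown for 3 pericentral P450 genes that were high in the same mutant library, and for the periportal P450 gene that was not. RefSeq promoters (GRCm38.p6, the patched form of mm10) matched 6 of the 9 enzymes, and Ces3a, Car3 and Cps1 had no entry. Each run below ends at the base before the annotated gene, reads 5′ to 3′ on the gene's strand, and has up to 150 bases. For Cyp2c29 the start of the entry lies inside the annotated gene, so its run is shorter. Capitals mark the matches to the motifs named after the sequences.
Cyp2e1 (chr7:140763669-140763818, plus strand): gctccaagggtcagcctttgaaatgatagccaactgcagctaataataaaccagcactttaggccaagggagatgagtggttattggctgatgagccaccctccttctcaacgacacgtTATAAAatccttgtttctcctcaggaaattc
Cyp2c29 (chr19:39286935-39287043, plus strand): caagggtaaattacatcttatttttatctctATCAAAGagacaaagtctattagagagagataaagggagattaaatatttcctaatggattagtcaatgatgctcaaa
Cyp3a11 (chr5:145879855-145880004, minus strand): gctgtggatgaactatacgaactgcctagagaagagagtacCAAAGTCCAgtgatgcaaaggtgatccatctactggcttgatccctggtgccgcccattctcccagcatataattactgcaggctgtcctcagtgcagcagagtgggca
Cyp2f2 (chr7:27119805-27119954, plus strand): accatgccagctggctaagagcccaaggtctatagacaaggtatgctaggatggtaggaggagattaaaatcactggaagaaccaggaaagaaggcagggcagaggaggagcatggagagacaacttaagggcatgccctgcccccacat

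The motifs searched, chosen with these sequences in view, were TATAAA (the TATA box, which places the transcription start), ATCAAAG (a core site of TCF/LEF factors, which act in Wnt signalling) and CAAAGTCCA (a core site of HNF4, a hepatocyte factor). Both strands of the 250 bases before each start were searched, and no 2 of the matches shown overlap. TATAAA stood 31 to 26 bases before the transcription start of the Cyp2e1 entry and was in 12.4% of 32851 RefSeq promoters. It was also in the windows of Cyp3a11 and Cyp2c29, outside the bases shown. ATCAAAG stood in the window of Cyp2c29, 119 to 113 bases before the start, and in 3.21% of all promoters. CAAAGTCCA stood in that of Cyp3a11, 109 to 101 bases before the start, and in 0.384% of all promoters. ATCAAAG and CAAAGTCCA were each in 1 of the 6 windows of enzymes. None of the 3 motifs was in the windows of Cyp2f2, Fbp1 or Ass1. As the motifs were chosen with the sequences in view, nothing about zones is read from which windows held them. A match describes the letters and does not show that a factor binds.

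Cyp2e1 (Entrez gene 13106, chr7:140763819-140774990), which oxidises ethanol, acetone and other small molecules, was the most abundant of the set. It had 74, 289 and 95 counts in mutant libraries and 0, 0 and 1 in wild-type ones. Mutant library 2 held most of them, and the genotypes did not overlap. The ratio of mutants to wild type, on library totals scaled by TMM (factors that equalise most genes between libraries), was 657 (exact 95% interval 117 to 25990). On total counts it was 467. The width of the interval comes from the single wild-type count. Without wild-type library 3, which held it, the ratio became a bound of at least 142-fold, and without mutant library 2 it was 362. Of all 1633 cytochrome P450 counts in the mutants 28.1% (95% Wilson interval 25.9 to 30.3) were Cyp2e1, against 1 of 243 in wild type.

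Cyp2c29 (13095, chr19:39287044-39330713) and Cyp3a11 (13112, chr5:145854607-145879854) are P450s of drug and steroid oxidation. Cyp2c29 had 20, 95 and 33 counts in the mutants against 0 in each wild-type library. Cyp3a11 had 22, 92 and 37 against 0 in each. Both therefore had the order of Cyp2e1 over the mutant libraries. Against a floor of 3 counts over the wild-type group, Cyp2c29 was at least 70.7-fold and Cyp3a11 at least 72.2-fold higher. On total counts the bounds were 50.3-fold and 51.3-fold. Without mutant library 2 they fell to 37.9-fold and 42.2-fold, and without batch 2 to 26.4-fold and 29.4-fold. Cyp2c29 made up 60.7% (54.4 to 66.6) of the 244 counts of the Cyp2c genes in the mutants, and the next was Cyp2c70 with 23. Cyp3a11 made up 72.3% (65.8 to 77.9) of the 209 Cyp3a counts, and the next was Cyp3a25 with 52. Each was thus the most counted gene of its subfamily.

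Car3 (12350, chr3:14863538-14872381), a cytosolic carbonic anhydrase also known from muscle and fat, had 21, 66 and 39 counts in mutant libraries and 0, 0 and 1 in wild-type ones. The genotypes did not overlap. The TMM-scaled ratio was 181 (31.8 to 7190), and 129 on total counts. Without wild-type library 3 it became a bound of at least 39.0-fold. Its family is also read from red cells, where Car2 is abundant. Car2 had 864 counts in the mutants and did not pass the test (log2 −0.19, SE 0.19, edgeR adjusted p = 0.689). Car3 was 12.0% (10.2 to 14.1) of carbonic anhydrase counts in the mutants and 1 of 1450 in wild type. Of 13 other carbonic anhydrases 2 were tested, Car2 and Car1, and 0 were called, beside 5.99% higher and 1.06% lower of all genes tested.

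Among the periportal enzymes, Cyp2f2 (13107, chr7:27119955-27133660), a P450 also known from the club cells of the lung, had 19, 12 and 13 counts in the mutants against 0 in each wild-type library. It was the one enzyme of the set whose count was highest in mutant library 1. It was at least 21.0-fold higher, or 15.0-fold on total counts. Cps1 (227231, chr1:67122426-67231267), which makes carbamoyl phosphate from ammonia in the first step of the urea cycle, had 21, 49 and 15 against 0 in each. The bound was 40.6-fold, or 28.9-fold on total counts, and without mutant library 2 it was 25.7-fold. Fbp1 (14121, chr13:62864753-62888298), which removes a phosphate in gluconeogenesis, had 6, 9 and 11 counts against 0 in each. The bound was 12.4-fold, or 8.84-fold on total counts. Fbp1 did not pass the filter on low counts.

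Ces3a (382053, chr8:105048576-105061928), a microsomal esterase of lipid handling, had 43, 71 and 50 counts in the mutants against 0 in each wild-type library. Its counts varied least between mutant libraries among the 5 most abundant enzymes, by 1.65 times from library 1 to library 2. It was at least 78.4-fold higher, or 55.7-fold on total counts. Its paralog Ces3b had 31 counts in the mutants, so that Ces3a was 84.1% (78.3 to 88.6) of the pair. Leaving out wild-type library 1 or 3 lowered the value of every enzyme with one by 1.53-fold or more, for example that of Ces3a to 51.3-fold and 50.7-fold. For enzymes at 0 in wild type the floor stays fixed, so this fall comes only from the scaled library totals. It says nothing about the enzymes in those libraries.

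Ass1 (11898, chr2:31470270-31520670), argininosuccinate synthase, was nearly absent from the counts. Only mutant library 3 held 1 count, and no fold is given. The other genes of the cycle were read in the mutants: Cps1 as above, Otc (ornithine transcarbamylase) with 5, 16 and 8 counts against 0 in each, Asl (argininosuccinate lyase) with 2, 12 and 3 against 0, 1 and 0, and Arg1 (arginase) with 23, 47 and 7 against 3, 0 and 0. The step between Otc and Asl was therefore the one with hardly any counts of its own gene. A transcribed pseudogene, Gm5424 (432466, chr10:62071022-62072571), picked out after its counts were seen, is nearly identical to Ass1. Of the 1236 coding bases of Ass1, 1230 were the same in Gm5424, 6 differed and there were no gaps, an identity of 99.5%. Coding bases 310 to 429 of Ass1 and the aligned bases of Gm5424 are shown, from GENCODE transcripts of mm10 on the sense strand. This was the first 120-base stretch of the coding part with the most differences. No other coding stretch of that length held more. Capitals mark the 2 positions that differ.
Ass1: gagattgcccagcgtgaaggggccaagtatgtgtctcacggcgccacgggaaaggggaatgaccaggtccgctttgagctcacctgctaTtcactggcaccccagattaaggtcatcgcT
Gm5424: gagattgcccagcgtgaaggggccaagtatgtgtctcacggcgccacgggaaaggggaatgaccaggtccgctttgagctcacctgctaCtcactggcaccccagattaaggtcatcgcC

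Gm5424 had 17, 58 and 11 counts in mutant libraries and 7, 1 and 3 in wild-type ones. The groups did not overlap, and mutant library 2 was again the highest. Its log2 difference was 3.50 (SE 0.94) with an edgeR adjusted p of 0.0915, which did not pass. It passed with total counts (log2 2.95, adjusted p = 0.0136), with batch as a replicate block (log2 3.31, adjusted p = 8.68e-11) and with DESeq2 (log2 3.69, adjusted p = 0.000263). Without mutant library 2 or 3 it also passed (edgeR adjusted p = 0.0295 and 0.00199). Over its 15 alternatives the adjusted p ran from 1.34e-12 to 0.253, and all differences were above 0. Of the 50-base windows of the Ass1 transcript, 55.3% occurred exactly in Gm5424, and 76.5% of those of Gm5424 occurred in Ass1. How the counting treated reads that match both genes is not given in the sources used here, so the 2 genes' counts are uncertain one by one.

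Other enzymes shared less sequence with other genes. For Ces3a 30.9% of windows also occurred in Ces3b, for Cyp3a11 14.8% occurred in other genes (6.32% in Cyp3a41a, the highest), and for Cyp2f2 10.02% occurred in the pseudogene Gm15883. The values were 4.82% for Cyp2e1 and 2.08% for Cyp2c29, and no window of Car3, Cps1 or Fbp1 was shared.

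**Figure D2:**
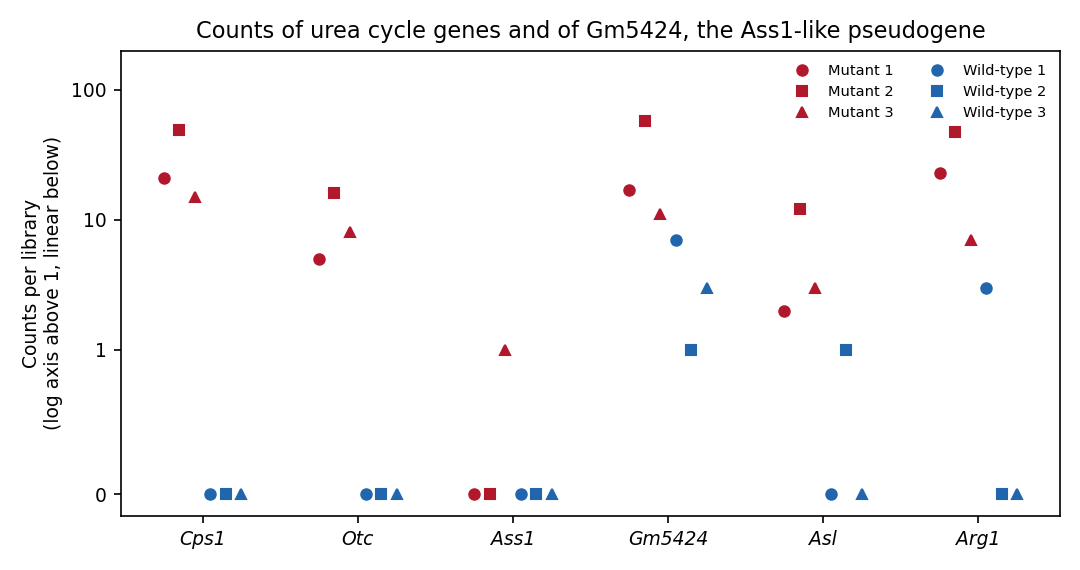
Counts of the urea cycle genes and of Gm5424 in each of the 6 libraries (y axis, log scale above 1 and linear below; mutants red, wild type blue). Ass1 has 1 count in all, while the near-identical Gm5424 has 11 to 58 counts in mutant libraries and 1 to 7 in wild-type ones.

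Levels of the enzymes can be compared with each other only per length of gene. In CPM per kilobase of gene, Cyp2e1 had a level of 2.80, 10.9 and 3.73 in the mutants, a mean of 5.81 ± 4.43 (SD, n = 3), and was the highest enzyme in each library. Next came Cyp2c29 at 1.83 ± 1.46, Car3 at 1.82 ± 0.961, Ces3a at 1.77 ± 0.454 and Cyp3a11 at 1.63 ± 1.17. The SDs of these 4 overlapped, but an SD over libraries is not the error of a difference between enzymes within a library. Cyp2c29 was above Cyp3a11 in each library (0.738, 3.49 and 1.26 against 0.706, 2.94 and 1.23). No other pair of the 4 kept 1 order. Cyp2f2 at 0.536 ± 0.134, Fbp1 at 0.404 ± 0.124 and Cps1 at 0.398 ± 0.250 followed, again with overlapping SDs, and Ass1 was at 0.014 ± 0.024. Each pericentral enzyme and Ces3a lay in each mutant library above each periportal enzyme in any mutant library. The nearest values were 0.706 for Cyp3a11 in mutant library 1 and 0.688 for Cyp2f2 in the same library.

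**Figure D3:**
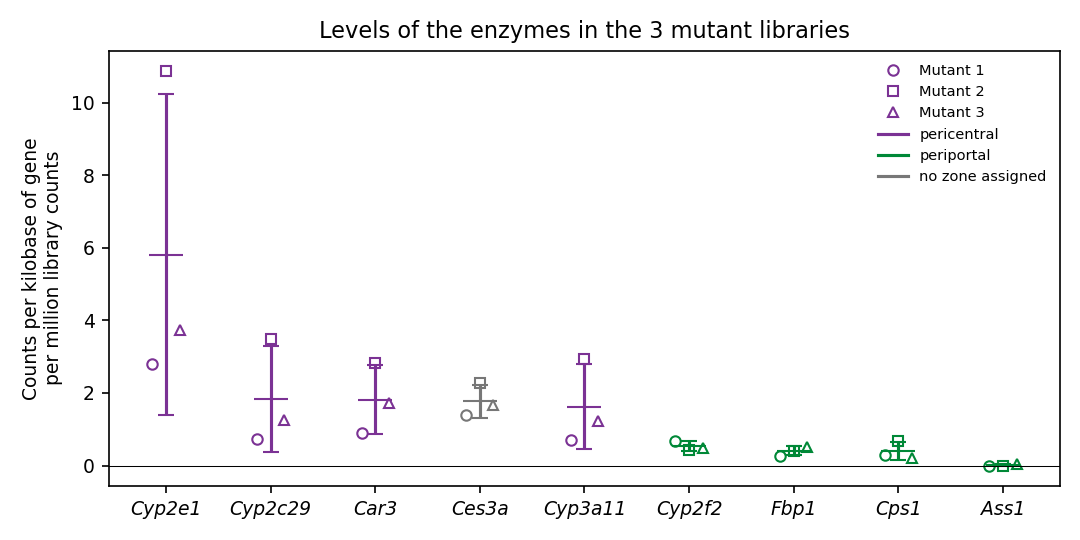
Level of each enzyme (CPM per kilobase of gene) in the 3 mutant libraries (open markers), with the mean (long line) and SD (bars); purple is pericentral, green periportal and grey without a zone. Cyp2e1 has the highest mean level, 5.81, and the 4 periportal enzymes have the lowest 4.

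Summed over zones, the pericentral enzymes had 137, 542 and 204 counts in the mutants and the periportal enzymes 46, 70 and 40. Pericentral counts were thus 74.9% (95% Wilson interval 68.1 to 80.6), 88.6% (85.8 to 90.9) and 83.6% (78.5 to 87.7) of the zoned counts. The mean was 82.3% ± 6.94 (SD, n = 3). Wild type held 2 pericentral counts and 0 periportal ones, which gives no share. The interval of mutant library 1 lay below that of mutant library 2, so these libraries differed by more than counting error. Divided by gene length the shares were 80.4%, 93.0% and 86.2%. With Gm5424 counted as Ass1 they were 68.5%, 80.9% and 80.0%, and without Car3 71.6%, 87.2% and 80.5%. Each of these settings kept mutant library 1 lowest and mutant library 2 highest.

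The same order was seen in other zoned genes. From the lists described below, 20 pericentral and 18 periportal genes with at most 3 wild-type counts, albumin left out, were taken after their values were seen. They gave pericentral shares of 29.8% (24.3 to 36.1), 49.6% (45.3 to 53.9) and 46.1% (40.2 to 52.1) in mutant libraries 1, 2 and 3. The level of the share depends on which genes are counted, and it is no share of cells. In both sets mutant library 1 was lowest.

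**Figure D4:**
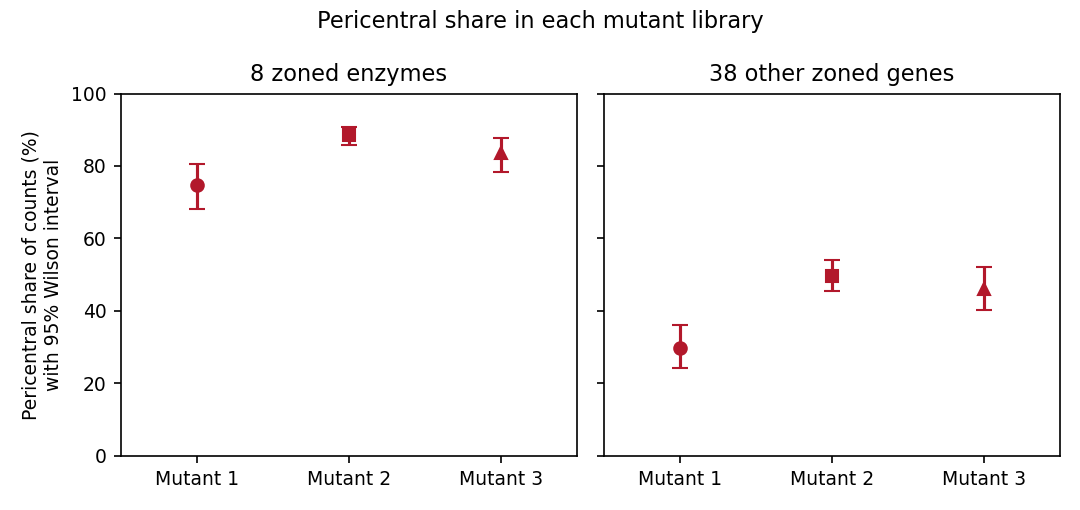
Pericentral share of counts (%, y axis from 0 to 100) in each mutant library for the 8 zoned enzymes (left) and for 38 other zoned genes (right), with 95% Wilson intervals. Mutant library 1 is lowest in both panels, at 74.9% and 29.8%.

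To set the enzymes against the liver transcripts of the same library, 24 genes of proteins that hepatocytes secrete were summed. They had 1697, 3699 and 2171 counts in mutant libraries and 130, 28 and 41 in wild-type ones. Their count in mutant library 2 was 2.18 times that in mutant library 1. The pericentral sum was 3.96 times, and the periportal sum 1.52 times. Of single enzymes, Cyp2c29 was at 4.75 times, Cyp3a11 at 4.18, Cyp2e1 at 3.91 and Car3 at 3.14. Cps1 was at 2.33 times, Ces3a at 1.65, Fbp1 at 1.50 and Cyp2f2 at 0.632. All 4 pericentral enzymes thus lay above the ratio of the secreted-protein genes, and of the periportal ones with counts in both libraries only Cps1 did.

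Per 1000 secreted-protein counts the pericentral enzymes had 80.7 (exact 95% interval 67.3 to 96.1), 146.5 (133.6 to 160.4) and 94.0 (81.0 to 108.5) counts. Mutant library 2 was above the other two. The periportal enzymes had 27.1 (19.8 to 36.3), 18.9 (14.7 to 23.97) and 18.4 (13.1 to 25.2), with intervals that overlapped. Cyp2e1 had 43.6 (34.1 to 55.1), 78.1 (69.1 to 88.1) and 43.8 (35.3 to 53.8), so that only mutant library 2 stood apart. Cyp2f2 had 11.2 (6.72 to 17.5), 3.24 (1.68 to 5.67) and 5.99 (3.18 to 10.3), with mutant library 1 above mutant library 2. Ces3a had 25.3 (18.3 to 34.3), 19.2 (15.0 to 24.3) and 23.0 (17.0 to 30.5), which overlapped. These intervals cover counting error only.

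**Figure D5:**
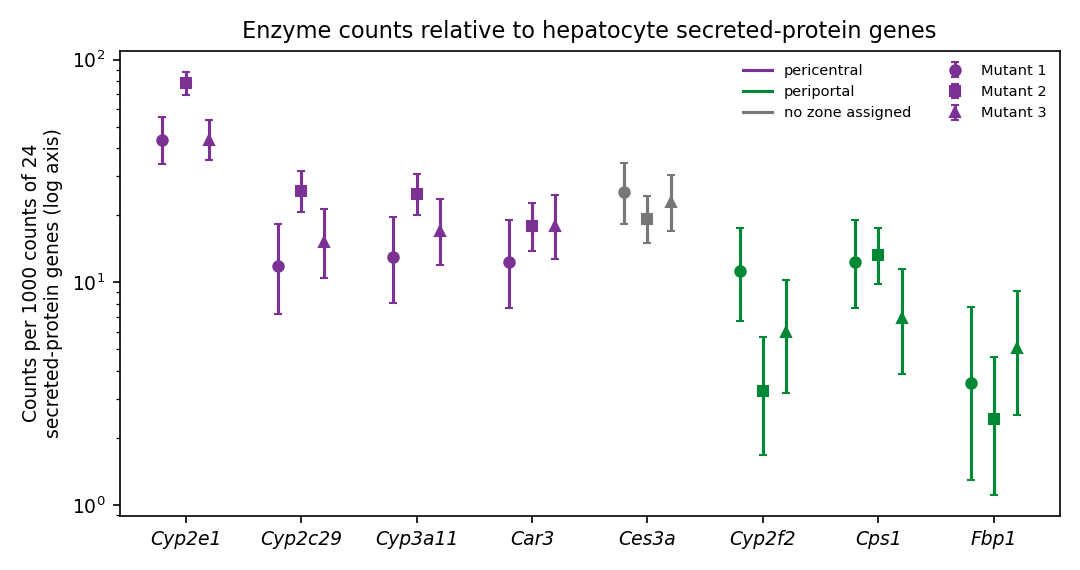
Counts of 8 enzymes per 1000 counts of 24 secreted-protein genes (y axis, log scale) in the 3 mutant libraries, with exact 95% intervals; purple is pericentral, grey without a zone and green periportal. Cyp2e1 stands at 78.1 in mutant library 2 against 43.6 and 43.8 in the other libraries, while Cyp2f2 falls from 11.2 in mutant library 1 to 3.24 in mutant library 2.

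Other textbook pericentral genes were taken from a list of 32, of which 28 had a count and 7 were tested. Of these 4 were higher in the mutants, 0 were lower and 3 did not pass, beside 5.99% higher and 1.06% lower of all genes tested. Their median log2 difference was 4.19 (4.18 with genes of 0 wild-type counts at their bound), beside −0.06 over all genes tested. A gene at 0 in wild type could pass the filter on low counts only through its mutant counts. Gstm1, a glutathione transferase, had 22, 44 and 27 counts against 5, 1 and 1 (log2 4.19, SE 0.51, edgeR adjusted p = 9.25e-06). The other higher genes were named after their values were seen: Rgn (regucalcin), Akr1c6 (a steroid dehydrogenase) and Cyp1a2 (a P450 that oxidises caffeine). Rgn had 13, 50 and 15 counts against 0 in each, at least 37.3-fold higher (edgeR adjusted p = 0.0376). It was no longer called when mutant library 1 (adjusted p = 0.148), wild-type library 1 (0.0702) or batch 1 (0.226) was left out, or with RLE scaling (0.0530), and over its alternatives the adjusted p ran from 2.8e-22 to 0.226. The 3 that did not pass are also transcripts of the wild-type red cell libraries: Aldh1a1, a retinal dehydrogenase, had 2484 to 3014 counts in mutant libraries and 3226 to 3921 in wild-type ones. Glul, glutamine synthetase and the classic marker of the last pericentral cells, had 27, 31 and 38 against 53, 50 and 56 (log2 −0.21, SE 0.24, adjusted p = 0.747). Por, the electron donor of P450s, had 33, 22 and 53 against 58, 34 and 35 (log2 0.27, SE 0.29, adjusted p = 0.727). Lgr5, Nkd1, Sp5 and Rhbg had 0 counts in every library.

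Of 22 other periportal genes, 21 had a count, 4 were tested and all 4 were higher, with a median log2 difference of 7.48 (6.65 with bounds). Among them were Alb (albumin), Pigr (the receptor that carries IgA into bile) and, named after its value was seen, Uox (urate oxidase). Pigr had 14, 21 and 25 counts against 1, 0 and 0 (log2 5.90, SE 0.65, edgeR adjusted p = 3.26e-06). Uox had 15, 29 and 12 against 0 in each, at least 26.8-fold higher (adjusted p = 9.63e-05). Each zone list thus had 4 higher genes, of 7 tested on the pericentral and of 4 tested on the periportal list. Over all genes tested 5.99% were higher and 1.06% lower. Among genes with a count, the mutant counts all lay above the wild-type counts for 12 of 28 on the pericentral list. On the periportal list it was 16 of 21, against 2.87% of all genes with a count. A difference between the lists was not tested.

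The urea cycle and nitrogen list held 9 genes beside the set, of which 2 were tested. Glud1, glutamate dehydrogenase, had 24, 32 and 26 counts against 18, 11 and 24 and passed (log2 1.17, SE 0.32, edgeR adjusted p = 0.0303), and Glul did not. Glud1 was no longer called when mutant library 1 or 2, wild-type library 1 or 2, or batch 1 or 2 was left out (adjusted p = 0.0613 to 0.344), with total counts (0.202) and with DESeq2 (0.169). Its smallest adjusted p over the alternatives was 0.0109, with the replicate block. Of 8 genes of gluconeogenesis 3 were tested and 1 was higher. On both lists 1 tested gene was higher and 0 lower, beside 5.99% and 1.06% of all genes tested. Pck2 and Pcx, at log2 0.32 (SE 0.32) and 0.30 (SE 0.43), did not pass (adjusted p = 0.691 and 0.791). Pck1, the rate-limiting cytosolic enzyme of the path, had 22, 11 and 9 counts in mutant libraries and 0 in wild-type ones. Like Cyp2f2 it was highest in mutant library 1, but it was too low to be tested.

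Of 54 other P450 and P450-linked genes 44 had a count, and 4 of 7 tested were higher and 0 lower, beside 5.99% and 1.06% of all genes tested. The 4 had 0 wild-type counts, so they entered the test only through the mutants. The higher ones were Cyp2d9, with 23, 51 and 26 counts against 0 in each (at least 47.8-fold, edgeR adjusted p = 1.81e-05), and, named after their values were seen, Cyp2d10, Cyp2a12 and Cyp1a2, the last also on the pericentral list. Their bounds were 23.4-fold, 18.6-fold and 18.2-fold. The electron-transfer genes Cyb5a, Cyb5r3 and Por, which red cells also use or carry, did not pass (log2 0.95, 0.86 and 0.27). Of 15 other carboxylesterases 12 had a count and 3 were tested. Of these 2 were higher and 0 lower, beside 5.99% and 1.06% of all genes tested. The 2 had 0 and 1 wild-type counts, so they too entered the test only through the mutants. Ces1c had 28, 73 and 29 counts against 0 in each (at least 62.1-fold, edgeR adjusted p = 0.00133), a call that ended without mutant library 1 (0.0824) or batch 1 (0.0713), with the smallest adjusted p at 5.85e-34 with no filter. Ces1b had 14, 34 and 11 against 0, 1 and 0 (log2 5.92, SE 0.86, adjusted p = 0.000211). Ces2g was close to even, at 11, 18 and 24 against 11, 24 and 20.

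The genes whose distribution over the 6 libraries was most like that of the summed enzymes were Inmt, Sult2a8, Hpd, Mup10 and Itih1. The likeness, which is the overlap of the shares of TMM-scaled CPM over the 6 libraries among genes with at least 30 counts, was 0.995, 0.991, 0.991, 0.978 and 0.973. Inmt methylates amines, Sult2a8 adds sulfate to bile acids, Hpd degrades tyrosine, Mup10 is a major urinary protein and Itih1 a plasma protein. Hpd had 21, 64 and 26 counts and Inmt 6, 18 and 8, with 0 in each wild-type library for all 5.

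Some of the enzymes are known outside the liver, and markers of those tissues were counted. Of 8 lung markers, Scgb1a1, Scgb3a2, Sftpc, Sftpa1 and Bpifa1 were at 0 in every library, and the sum was 3, 2 and 4 in mutant libraries and 9, 2 and 0 in wild-type ones. Of 7 fat markers, Adipoq, Cfd, Plin1, Lep and Cidec were at 0, and the sum was 0, 2 and 3 against 1, 0 and 0. The 8 muscle markers summed to 7, 4 and 2 against 4, 4 and 9, the 8 kidney markers to 0, 0 and 1 against 0, 1 and 1, and the 8 intestine markers to 3, 9 and 4 against 10, 0 and 1. Other members were not at 0: Ager had 3, 2 and 3 counts against 1, 2 and 0, Retn 0, 1 and 2 against 1, 0 and 0, and the muscle gene Mylpf 3, 2 and 2 against 1, 3 and 4. Of the intestine markers Fabp2 had 1, 6 and 2 counts and Apoa4, also on the periportal list, 2, 2 and 2, both against 0 in each. These 2, of 5 intestine markers with a count, had each mutant count above each wild-type count, beside 2.87% of all genes with a count. Vil1 gave 9 of the 10 intestine counts of wild-type library 1. The part of these tissues in the counts of Cyp2f2 and Car3 was not tested.

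Markers of other liver cells were also counted, and of the 3 tested none passed. The 8 markers of liver endothelium summed to 21, 64 and 51 in mutant libraries and 13, 9 and 19 in wild-type ones, with 1 marker tested, and 2 of the 8 had each mutant count above each wild-type count. The 8 Kupffer cell markers summed to 16, 13 and 22 against 6, 0 and 6, with Marco and C1qb at 0 and 0 tested. Of the 6 Kupffer markers with a count, 3 had each mutant count above each wild-type count. Of all genes with at least 1 count, 2.87% had each mutant count above each wild-type count. The sums of both lists were also higher in each mutant library than in each wild-type one. The sums of stellate cell markers, at 46, 27 and 47 against 31, 40 and 60, overlapped between the genotypes. So did those of bile duct markers, at 1, 1 and 2 against 36, 0 and 6. For 1 of the 7 stellate markers with a count, Dcn, each mutant count was above each wild-type count (9, 14 and 11 against 0, 0 and 8). This held for 0 of the 5 bile duct markers with a count. Leukocyte markers were at 943 to 1599 in mutant libraries and 1495 to 1857 in wild-type ones, and platelet markers at 74 to 179 against 160 to 296. The part of these cells, and that of the TMM factors of 0.718, 0.779 and 1.06 in the mutants against 1.11 to 1.23 in wild type, was not tested.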

How the data were processed

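The deposited files hold 1 raw count per gene and library, not normalized, per the file headers. CASAVA 1.8.2, Subread, featureCounts and the build mm10 are named in the submitters' processing notes. Versions of Subread and featureCounts, the annotation, the strand setting and the treatment of multi-mapped reads are not given in the sources used here, so reads of overlapping or antisense genes cannot be told apart. The files' gene lengths, deposited beside the counts, were used for levels per kilobase. Symbols were found for 25293 of 27179 genes, 25275 from RefSeq and 18 from GENCODE, and genes without one held 1.39% of counts. Positions are RefSeq's.

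Genotypes were compared with edgeR 4.0.16 in R 4.3.3 (quasi-likelihood F test, robust; TMM; filterByExpr; Benjamini-Hochberg adjustment over all genes tested; called at an adjusted p under 0.05). Bounds use a floor of 3 counts over the wild-type group, and ratios against 1 to 3 counts have exact binomial intervals, both on TMM-scaled totals. Shares have 95% Wilson intervals. Neither these nor the floors hold more than counting error, as no molecular identifiers were used.

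The enzymes and all gene lists were chosen with earlier results of these data known, so counts over them are no independent support. Genes named are the 9 enzymes, Nxf1, up to 4 genes with most counts from each zone or enzyme list, 2 per cell marker list (given here mostly as sums) and the 5 genes most alike. Others are said to be named after their values. Some genes on these lists are not reported here. Of 296 list entries 293 matched a gene. Si, Hbb-bt and Ahsp did not.

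By the labels each batch holds 1 library of either genotype, which pairs them. Same-batch deviations from the group means correlated at −0.116, −0.0858 and −0.0443. Alternatives were batch as a replicate block, RLE scaling, total counts, globin genes removed, no low-count filter, DESeq2 1.42.0, a filter at a mean of 50 counts, and leaving out each library or batch.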

Additional observations from a re-analysis of the deposited data

How the results depend on the processing

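Ratios and bounds of the enzymes gave 120 values under other scalings, filters and left-out libraries or batches, of which 95 moved by less than the spread between mutant libraries and 25 by more. The replicate block does not enter a ratio or bound, so its values could not move. With the block, and with globin genes removed, the values equalled the main ones. These values are among the 95 and show no stability. DESeq2 was run over all genes with a count, but no ratio or bound of the enzymes was taken from it. The enzymes were selected on this contrast and most had 0 wild-type counts, so their direction could not turn and shows no stability. The pericentral share of the enzymes, 82.3% on average, ranged from 79.2% to 86.1% without 1 mutant library.

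Over all genes, 169 were higher and 30 lower. The numbers were 382 and 82 with no filter, 66 and 49 with a mean count of at least 50, and 270 and 6 with DESeq2. They were 175 and 19 with RLE scaling, and 115 and 245 with total counts. That scaling moved the median log2 difference over the genes tested from −0.06 to −0.53. With batch as a replicate block they were 195 and 59, and the block changed no call of a named gene but that of Gm5424. Without 1 library 137 to 244 were higher and 8 to 78 lower. Lower genes numbered 14, 15 and 8 without mutant library 1, 2 or 3, and 78 and 11 without wild-type library 1 or 3. Without batch 2 or 3, 19 and 3 were lower. The cause was not tested.

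Of other pericentral genes, 4 were higher, but 12 with no filter, 0 with a mean count of at least 50 and 9 with DESeq2. Of other periportal genes it was 4, but 12, 1 and 9. The stricter filter left fewer genes to test. Of 573 values of other named genes, 16 fell below and 14 rose past the threshold, and no called value turned its direction.

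A count of 0 in 1 library allows 0.190 to 0.205 CPM, so wild-type levels of 7 enzymes are known only as upper limits. With 3 libraries a group, the spread of mutant levels rests on few animals.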

Other observations

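Cytochromes P450 known to differ between male and female mouse liver were read in the same libraries. They were chosen after their values were seen, and all 6 animals were male. Of 4 genes known to be higher in males, Cyp2d9 had 23, 51 and 26 counts in mutant libraries 1, 2 and 3, Cyp7b1 had 12, 19 and 4, Cyp4a12a had 6, 11 and 2, and Cyp4a12b had 1, 1 and 0. The set summed to 156 mutant and 0 wild-type counts. Of 8 genes known to be higher in females (Cyp2b9, Cyp2b13, Cyp2c40, Cyp2c69, Cyp3a16, Cyp3a41a, Cyp3a41b and Cyp3a44), the sum was 3 mutant and 0 wild-type counts.

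Some pericentral P450s, also picked after their values were seen, were hardly read in mutant library 1. Cyp2a5 had 1, 17 and 12 counts in mutant libraries 1, 2 and 3, Cyp2c50 had 0, 16 and 6, and Cyp2c54 had 0, 7 and 6. Cyp2c37 had 1, 0 and 5, hardly read in mutant library 2 either. Other P450s on the pericentral list went the other way: Cyp1a2 had 10, 18 and 10, and Cyp27a1 had 7, 14 and 3. Cyp2a12, of the same Cyp2a subfamily as Cyp2a5 but not on that list, had 10, 18 and 11. Of these genes only Cyp27a1 had counts in wild type (0, 3 and 0).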
